A study of Homo sapiens with 4 samples.

Results

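The 44 genes described here lie in 2 stretches of the long arm of chromosome 12, band 12q24, and were chosen by their measured intensities, as neighbours that stood higher in HCT116-MT than in HCT116-WT cells on these same arrays. The first stretch runs from the *FBXO21* neighbourhood to *POP5* (20 genes) and the second from *DENR* to *BRI3BP* (24 genes). Because the difference between the lines chose them, their values are given as a description and carry no test. HCT116 is a human colorectal cancer line whose parent holds a wild-type and a mutant allele of *CTNNB1*, which encodes β-catenin. HCT116-WT kept the wild-type allele and HCT116-MT the mutant allele, in each case after the other allele of the parental line had been disrupted, and both received no treatment. Each group is a single purchased subline, measured as 2 samples on 1 HumanHT-12 v4 array each, so what separates the sublines beside *CTNNB1* cannot be told apart from the allele. Whether a line's 2 samples were grown separately is not given in the sources used here, so every error and p-value covers the spread between samples alone, and that spread may be technical.

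Of the 44 genes, 41 had a probe detected on at least 2 of the 4 arrays, among 11875 genes measured in all and 626 on chromosome 12, and 39 of the 41 were detected on all 4 arrays. A probe counts as detected where its detection p-value, a comparison with the negative controls of its array, is under 0.05. *CIT* (citron kinase of cytokinesis), *OGFOD2* and *PITPNM2* (a phosphatidylinositol transfer protein) were detected on 0 of 4 arrays and have no value here. *TCTN2* was detected on 1 array of each line and *ATP6V0A2* on 1 HCT116-WT and both HCT116-MT arrays.

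Genes that lie side by side on a chromosome arm need not share a function, and the 12q24 genes serve DNA replication, transcription, RNA processing, protein synthesis, mitochondria, signalling and membrane traffic. Some neighbours do share control sequence: where 2 genes start close together and run in opposite directions, a single stretch of DNA acts as the promoter of both. β-catenin, when it is stabilised in colorectal cancer cells, enters the nucleus and acts on genes through DNA-binding proteins of the TCF/LEF family.

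RefSeq promoter windows (assembly GRCh38.p14, 250 bases before to 50 bases after a gene's start) were matched by symbol for 38 of the 44 genes, 53 windows in all. *TESC*, *VSIG10*, *MSI1*, *SNRNP35*, *TCTN2* and *SCARB1* had none. On either strand, the TCF/LEF letters CTTTGAA, its variant CTTTGAT, its variant CTTTGTA or its variant CTTTGTT stood in 2 of the 53 windows (3.77%, of *SIRT4* and *PITPNM2*), against 13.8% of all 35116 windows. The ETS letters ACTTCCGG stood in 6 windows (11.3% against 4.14%), the box CCAAT in 16 (30.2% against 34.6%) and the ZEB letters CACCTG in 13 (24.5% against 20.6%). These are letter matches and not measured binding, and several windows of 1 gene overlap, as do windows of genes that start back to back. The 35116 windows were not matched to the 53 for detection or base composition, so nothing is read from the differences in share. The 4 windows below belong to *RFC5*, the gene with the highest difference, *SIRT4*, the only measured gene with TCF/LEF letters, and to 1 gene of each of the pairs *TRIAP1*/*GATC* and *EIF2B1*/*GTF2H3*, which start close together. All are on the plus strand, at chr12:118016453-118016752 (*RFC5*), chr12:120302071-120302370 (*SIRT4*), chr12:120446194-120446493 (*GATC*) and chr12:123633579-123633878 (*GTF2H3*). Capitals mark the CCAAT box read on the other strand in *RFC5*, the TCF/LEF letters read on the other strand in *SIRT4*, the bases between the starts of *TRIAP1* and *GATC* in *GATC*, and the ETS letters in *GTF2H3*.
RFC5: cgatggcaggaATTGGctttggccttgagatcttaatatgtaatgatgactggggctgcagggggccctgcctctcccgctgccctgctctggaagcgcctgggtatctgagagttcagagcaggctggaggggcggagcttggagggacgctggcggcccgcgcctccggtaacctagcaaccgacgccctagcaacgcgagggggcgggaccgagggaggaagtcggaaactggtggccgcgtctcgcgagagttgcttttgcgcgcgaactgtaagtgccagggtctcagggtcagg
SIRT4: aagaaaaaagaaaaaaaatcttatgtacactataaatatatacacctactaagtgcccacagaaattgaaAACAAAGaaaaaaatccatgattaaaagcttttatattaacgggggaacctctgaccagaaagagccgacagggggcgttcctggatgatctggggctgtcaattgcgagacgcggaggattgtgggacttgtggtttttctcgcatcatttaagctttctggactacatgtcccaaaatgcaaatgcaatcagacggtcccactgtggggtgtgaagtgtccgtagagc
GATC: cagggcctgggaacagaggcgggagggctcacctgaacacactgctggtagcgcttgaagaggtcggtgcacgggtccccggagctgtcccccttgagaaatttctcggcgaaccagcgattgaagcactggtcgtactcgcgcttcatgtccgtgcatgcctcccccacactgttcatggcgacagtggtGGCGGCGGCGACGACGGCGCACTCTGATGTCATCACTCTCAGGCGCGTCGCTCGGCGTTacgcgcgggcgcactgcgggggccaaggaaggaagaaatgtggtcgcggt
GTF2H3: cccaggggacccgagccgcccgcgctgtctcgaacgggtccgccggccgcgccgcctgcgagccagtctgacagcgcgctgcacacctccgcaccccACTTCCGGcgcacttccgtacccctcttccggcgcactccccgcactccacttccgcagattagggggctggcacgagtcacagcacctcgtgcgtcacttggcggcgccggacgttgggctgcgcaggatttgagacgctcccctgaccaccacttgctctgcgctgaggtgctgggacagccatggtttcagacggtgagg

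Over the 41 measured genes, 39 had a higher mean in HCT116-MT, where 50% of all genes did, and the median log2 fold change was 0.55, that is 1.47-fold, against -0.00 over all 11875 genes. The lower and upper quartiles were 0.38 and 0.73, and the whole range ran from -0.27 to 0.97. In 33 genes both HCT116-MT arrays stood above both HCT116-WT arrays, in 8 the lines overlapped, and in 0 did both HCT116-MT arrays stand below, whereas 20.7% of all genes had both HCT116-MT arrays above. The study thresholds are a fold change over 1.5 with p under 0.05, taken here on limma's p before adjustment. The study's methods name an integrated test instead, so genes passing here need not be the study's own calls. They were passed in the higher direction by 14 of the 41 genes and by 3.46% of all genes. Since this contrast chose the list, nothing is read from the distance between these shares. Whichever array was left out, not all of the 14 stayed past the thresholds. In such fits the lone array of a line is assumed to vary like those of the other line. The median of the 41 genes was 0.48 without replicate 1 of HCT116-MT and 0.51 without replicate 2 of HCT116-MT.

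The first stretch had 19 measured genes, all 19 higher in HCT116-MT, with a median of 0.55. The second had 22, of which 20 were higher, with a median of 0.56. Array by array, the median gene stood 0.51 and 0.48 above the HCT116-WT mean on replicates 1 and 2 of HCT116-MT, on the log2 scale. Between the 2 HCT116-WT arrays the median gene differed by 0.01 and between the 2 HCT116-MT arrays by -0.01, with 21 and 17 of 41 genes higher on the second array. Each pairing of an HCT116-MT array with an HCT116-WT array gave a median between 0.41 and 0.52, with 37 to 40 of the 41 genes higher. Over all 11875 genes, 5812 to 6334 were higher in these pairings. As the same arrays chose the list, nothing is read from the likeness of the pairings. Single genes varied more than the median: the lines overlapped in 2 genes of the first stretch and in 6 of the second, and in 20 of the 41 leaving out 1 array moved the difference by over 1.5 times or turned its sign.

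**Figure D1:**
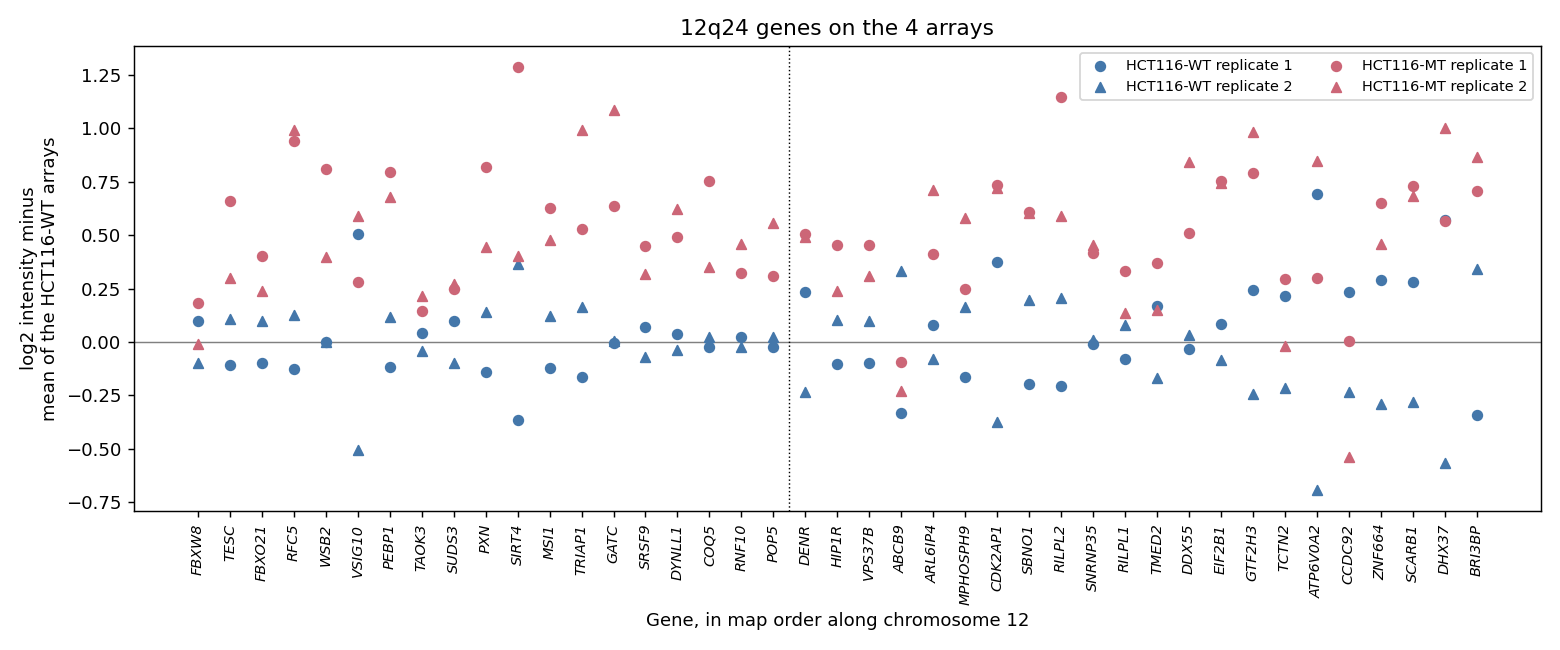
The 41 measured 12q24 genes in map order (horizontal axis), with the log2 intensity of each of the 4 arrays minus the mean of the 2 HCT116-WT arrays (vertical axis); blue is HCT116-WT, red HCT116-MT, circles replicate 1 and triangles replicate 2, and the dotted line parts the 2 stretches. Both red points lie above both blue points in 33 genes, and the lines overlap in 8.

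Genes of DNA replication, repair and transcription held the 2 highest differences. *RFC5*, a small subunit of the clamp loader that places the sliding clamp on DNA, had normalized intensities of 2493 and 2969 in HCT116-WT against 5225 and 5415 in HCT116-MT. Both mutant arrays were close together and well above both others, a log2 fold change of 0.97 (SE 0.20, n = 2 arrays a line, as throughout). *GTF2H3*, a subunit of TFIIH, which opens DNA for transcription and for nucleotide excision repair, had 696 and 496 against 1018 and 1162. Its lines did not overlap and differed by 0.89 (SE 0.24). *CDK2AP1*, which binds the cell cycle kinase CDK2, had 12567 and 7481 in HCT116-WT against 16144 and 15991 in HCT116-MT. Here the wild-type arrays were far apart and the mutant arrays nearly equal, so that the difference of 0.73 (SE 0.28) fell to 0.35 when replicate 2 of HCT116-WT was left out and came to 1.10 when replicate 1 was. *SBNO1*, the human counterpart of the fly transcriptional regulator strawberry notch, had 252 and 330 against 440 and 438, again without overlap (0.61, SE 0.22). *SUDS3*, of the Sin3 histone deacetylase complex, was dim, between 152 and 197 on the 4 arrays, and differed by 0.26. *ZNF664*, a zinc finger protein, differed by 0.55 with no overlap, or by 0.26 without replicate 2 of HCT116-WT.

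Several genes serve the processing and reading of RNA. *EIF2B1*, the alpha subunit of the exchange factor that recharges eIF2 at translation initiation, had 1435 and 1276 in HCT116-WT against 2277 and 2265 in HCT116-MT. The arrays of each line were close and the lines apart, by 0.75 (SE 0.19), and the value stayed between 0.63 and 0.83 under all alternatives tried. The RNA helicase gene *DDX55* had 807 and 843 against 1175 and 1480, and its mutant arrays, though unequal, were both above the others (0.68, SE 0.21). *DHX37*, a helicase of small ribosomal subunit assembly, had 2419 and 1100 against 2415 and 3266. Its lines overlapped, since replicate 1 of HCT116-WT was slightly above replicate 1 of HCT116-MT, and its difference of 0.78 (SE 0.40) was 0.22 without replicate 2 of HCT116-WT. *DENR*, which helps to recycle ribosomes and to restart initiation, differed by 0.50, or by 0.27 without replicate 2 of HCT116-WT. The splicing genes *SRSF9*, *ARL6IP4* and *SNRNP35* (a protein of the minor spliceosome's U11 particle) differed by 0.38, 0.56 and 0.44, each without overlap. *POP5*, shared by ribonucleases P and MRP, differed by 0.43 and the RNA-binding protein gene *MSI1* by 0.55, also without overlap.

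Mitochondrial genes lay mostly in the first stretch. *TRIAP1*, which carries phosphatidic acid across the space between the mitochondrial membranes, had 904 and 1137 in HCT116-WT against 1462 and 2014 in HCT116-MT. Each array differed from the others, yet both mutant ones were the highest (0.76, SE 0.25). Its neighbour *GATC*, a subunit of the enzyme that completes the charging of mitochondrial glutamine tRNA, had 249 and 251 against 389 and 531. The wild-type arrays were nearly equal and the mutant arrays spread, with no overlap and a difference of 0.86 (SE 0.23). *SIRT4*, a mitochondrial sirtuin, had 323 and 534 against 1012 and 548. The second replicates of the lines were nearly equal, with the first wild-type array below them and the first mutant array above. The difference of 0.84 (SE 0.38) became 0.40 or 1.29 when replicate 1 or 2 of HCT116-MT was left out, and 0.48 when replicate 1 of HCT116-WT was. *COQ5*, a methyltransferase of coenzyme Q synthesis, had 3867 and 4006 against 6642 and 5023, without overlap (0.55, SE 0.22, or 0.35 without replicate 1 of HCT116-MT).

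Signalling and cytoskeletal genes of the first stretch followed. *PEBP1*, the Raf kinase inhibitor protein, had 3000 and 3519 in HCT116-WT against 5632 and 5202 in HCT116-MT. The gap between the lines, 0.74 (SE 0.20), was wider than that within either. *PXN*, the focal adhesion adaptor paxillin, had 387 and 469 against 751 and 580, and its mutant arrays were both the highest (0.63, SE 0.23). *DYNLL1*, the dynein light chain that also serves as a hub for many other proteins, had 12195 and 11605 against 16731 and 18320. Its lines were well apart, but the difference of 0.56 (SE 0.19) was just under the 1.5-fold threshold. *TESC*, a calcium-binding regulator of the sodium/proton exchanger NHE1, differed by 0.48 and the kinase gene *TAOK3* by 0.18, both without overlap.

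Ubiquitin ligase genes gave a mixed picture. *WSB2*, a WD-repeat protein with a SOCS box, had 356 and 355 in HCT116-WT against 623 and 468 in HCT116-MT. The equal wild-type arrays lay below both mutant ones (0.60, SE 0.22, or 0.40 without replicate 1 of HCT116-MT). The ring finger gene *RNF10* and the F-box gene *FBXO21* differed by 0.39 and 0.32, without overlap. *FBXW8*, an F-box protein that works with the scaffold CUL7, had 197 and 171 against 208 and 182. Its lines overlapped and its difference, 0.09 (SE 0.20), was among the 3 lowest of the 41 and turned to -0.01 without replicate 1 of HCT116-MT or replicate 2 of HCT116-WT.

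Genes of membranes, vesicles and cilia filled much of the second stretch. *RILPL2*, which binds Rab proteins and acts in ciliary transport, had 299 and 399 in HCT116-WT against 763 and 520 in HCT116-MT. Both mutant arrays were higher, replicate 1 the more so (0.87, SE 0.27). *SCARB1*, the receptor that takes up cholesterol from high-density lipoprotein, had 1107 and 750 against 1512 and 1460. The mutant arrays were nearly equal and above both others (0.71, SE 0.25, or 0.42 without replicate 2 of HCT116-WT). *BRI3BP*, a membrane protein named for its binding to BRI3, had 802 and 1292 against 1659 and 1854. No array of one line reached the other (0.78, SE 0.27, or 0.44 without replicate 1 of HCT116-WT).

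The other genes of this kind differed by less or were less steady. *HIP1R*, which links clathrin coats to actin, the ESCRT-I subunit gene *VPS37B*, *MPHOSPH9*, a protein of centrioles, and the *RILPL2* relative *RILPL1* differed by 0.34, 0.38, 0.42 and 0.23, each without overlap. *TMED2*, a cargo receptor of early secretory vesicles, differed by 0.26 with overlapping lines. *ATP6V0A2*, a subunit of the vacuolar proton pump, had 347 and 133 against 265 and 386, and the lines overlapped widely. Its difference of 0.57 (SE 0.46) turned to -0.12 when replicate 2 of HCT116-WT, the dim array, was left out. The immunoglobulin-domain gene *VSIG10* (0.43, SE 0.36) turned to -0.07 in the same way, and *TCTN2*, of the ciliary transition zone, was near background, between 110 and 157, and differed by 0.14, or -0.08 without replicate 2 of HCT116-WT.

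Both genes with a lower mean in HCT116-MT belong to the second stretch. *CCDC92*, a protein of centrioles and cilia, had 1312 and 947 in HCT116-WT against 1119 and 769 in HCT116-MT. The arrays of the lines interleaved, and the difference of -0.27 (SE 0.28) was -0.03 when replicate 1 of HCT116-WT was left out and 0.0049, on the other side of 0, when replicate 2 of HCT116-MT was. *ABCB9*, a peptide transporter of lysosomes, had 758 and 1203 against 895 and 815. Here the wild-type arrays were the lowest and the highest of the 4, and the difference of -0.16 (SE 0.27) became 0.17 without replicate 2 of HCT116-WT. Each of these genes lies between measured neighbours that were higher in HCT116-MT.

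**Figure D2:**
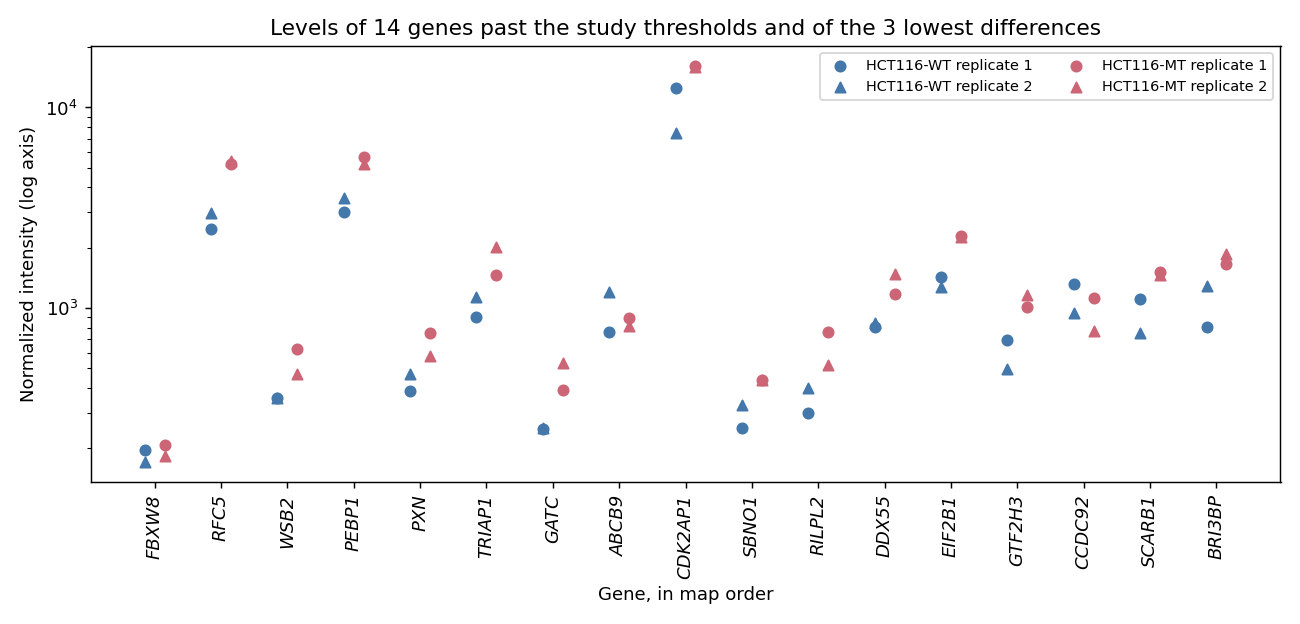
Normalized intensity on a log axis for the 14 genes past the study thresholds and the 3 with the lowest differences (*FBXW8*, *ABCB9*, *CCDC92*), in map order; blue is HCT116-WT, red HCT116-MT, circles replicate 1 and triangles replicate 2. In the 14 genes both red points lie above both blue points, and in the other 3 the colours interleave.

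Dim probes showed smaller differences than bright ones. The 7 genes with a mean intensity under 300 (*FBXW8*, *TAOK3*, *SUDS3*, *HIP1R*, *SNRNP35*, *TCTN2* and *ATP6V0A2*) had a median log2 fold change of 0.26 and 0 were past the thresholds, whereas the 34 brighter ones had a median of 0.56. When the background was first subtracted with the negative controls in mind (limma's neqc), the medians were 0.52 and 0.70. Across the 41 genes, which are not independent, Spearman's rho between mean log2 level and difference was 0.22, and -0.09 after neqc.

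For 8 of the 41 genes further probes were detected. The value used is that of the brightest, and 9 of the 10 further probes had the same sign as it. *BRI3BP*, with 4 probes, gave 0.78, 0.86, 0.86 and 0.29, the lowest from a probe between 143 and 190. In *ARL6IP4* both probes gave 0.56, and in *DYNLL1* they gave 0.56 and 0.62. Both *ABCB9* probes had a lower mean in HCT116-MT (-0.16 and -0.19). The exception was *DENR*, whose second probe gave -0.09 and read 412 and 441 on the first replicates but 1496 and 1232 on the second ones, a spread within each line that the brighter probe did not show. In *DHX37* the second probe, between 149 and 193, gave 0.20, against 0.78 from the brightest.

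Pairs of genes that start back to back were looked at side by side. *TRIAP1* and *GATC*, whose starts are 60 bases apart, differed by 0.76 and 0.86, and on both genes replicate 2 of HCT116-MT was the highest array. *EIF2B1* and *GTF2H3*, 143 bases apart and with the same ACTTCCGG match in both windows, differed by 0.75 and 0.89. *SRSF9* and *DYNLL1* (94 bases) differed by 0.38 and 0.56, the noncoding *NRAV*, which starts 167 bases from *DYNLL1*, by 0.16, and *MPHOSPH9* and *MTRFR*, a mitochondrial release factor gene that was not listed (295 bases), by 0.42 and 0.31. *CCDC92* and *ZNF664*, 384 bases apart, went opposite ways, at -0.27 and 0.55, though both windows held the same CACCTG match. A shared CCAAT match stood in the windows of *NRAV* and *DYNLL1* and of *MPHOSPH9* and *MTRFR*. None of the 4 motifs was shared in this way by *TRIAP1* and *GATC* or by *SRSF9* and *DYNLL1*. The partner of *ABCB9*, *OGFOD2*, was not measured. In 5 of the 6 pairs with both genes measured, both were higher in HCT116-MT. Since the listed genes were picked for being high, this count was to a large part fixed by the choice. *DYNLL1* also enters it more than once, and nothing is read from it.

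The genes around the list are not independent of the choice either, since a gene may have been left off for its value in the same contrast. Inside the 2 stretches 11 further genes were measured, and all 11 had a higher mean in HCT116-MT, with a median of 0.27. The lines did not overlap in 4 (36.4%, against 20.7% of all genes). The thresholds were passed by 1 gene (9.09%, against 3.46% of all genes). That gene was *KMT5A*, the histone H4 lysine methyltransferase, with 882 and 825 against 1547 and 1350, both mutant arrays well above the others (0.76, SE 0.20, adjusted p = 0.386 with limma). *RAB35* and *PRKAB1*, a subunit of AMP-activated kinase, stood at 0.50 and 0.47, and *MTRFR* at 0.31. *CCDC62*, *RNU4-2*, *COX6A1*, *RNU4-1*, *NRAV*, *KSR2* and *GCN1* lay between 0.02 and 0.27, all with overlapping lines. The probes of the near-identical small nuclear RNA genes *RNU4-1* and *RNU4-2* may not separate them.

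The ends of the stretches were not sharp. The 5 measured genes ahead of *FBXW8* ran from *LINC00173* (-0.28) and *MAP1LC3B2* (0.12) to *SPRING1* (0.42), *RNFT2* (0.60, SE 0.23) and *HRK*, a cell death activator of the BCL2 family (0.69, SE 0.24), of which the last 2 passed the study thresholds (adjusted p = 0.506 and 0.476 with limma). *RNFT2* had 1848 and 1395 against 2657 and 2223, and *HRK* 395 and 374 against 741 and 519, with both mutant arrays above the others in each. *RNFT2* was at 0.40 without replicate 2 of HCT116-WT and *HRK* at 0.43 without replicate 1 of HCT116-MT. After *POP5* came *MLEC* (0.23), *UNC119B* (0.43), *ACADS* (0.42), *SPPL3* (0.28) and *OASL* (-1.67). *OASL*, which interferon induces, was the only gene in or between the stretches past the thresholds on the lower side, with 1424 and 408 against 240 and 239. Its wild-type arrays were far apart, and the difference was -0.77 when replicate 1 of HCT116-WT was left out and -2.57 when replicate 2 was. Ahead of *DENR* lay *VPS33A* (0.54), *CLIP1* (0.19), *ZCCHC8* (0.06), *RSRC2* (0.22) and *KNTC1* (0.26). After *BRI3BP* came *AACS* (0.27), *TMEM132B* (0.20) and 3 uncharacterised loci between -0.02 and 0.23.

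Between the stretches 20 of 25 measured genes were higher in HCT116-MT, with a median of 0.26. *KDM2B*, a histone demethylase gene, passed the thresholds there, at 4006 and 3772 against 5840 and 6748, with both mutant arrays above the others (0.69). Beyond *BRI3BP*, out to the end of the arm, 18 of 25 were higher (median 0.23) and 5 passed the thresholds (20%, against 3.46% of all genes). They were *STX2*, *RAN*, *PUS1*, *NOC4L* and the DNA polymerase epsilon gene *POLE*, with differences from 0.63 (*NOC4L*) to 1.00 (*PUS1*). Before *FBXW8*, along the rest of the chromosome, 247 of 524 genes were higher and the median was -0.02. These values pool parts of the chromosome that differ, as the blocks described next show.

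In consecutive blocks of 20 measured genes along chromosome 12, a grouping chosen after the values were seen, the 21 blocks before *LTA4H* had medians between -0.23 and 0.07. Of the 420 genes in them 164 were higher, where 50% of all genes were, and their median was -0.08. The 11 blocks from *LTA4H* to the end of the long arm had medians between 0.15 and 0.57. The 12q24 list therefore lay within a longer run of the arm. Of the 165 genes from *LTA4H* onward that were not listed, 132 were higher, with a median of 0.27. The thresholds were passed by 22 of them on the higher and 1 on the lower side, against 3.46% and 3.85% of all genes. The start at *LTA4H* was set from these same differences, which partly fixed the counts. The highest block, with a median of 0.57, ran from *ABCB9* to *DHX37* and held 18 of the listed genes. Such blocks also occurred elsewhere: 5 of 31 full blocks on chromosome 12 had a median over 0.3, and so did 9 of 550 on other chromosomes (1.64%), on chromosomes 4, 6, 10, 13, 15, 18 and X. The highest of those was on chromosome 13, from *UGGT2* to *ERCC5*, at 0.66.

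**Figure D3:**
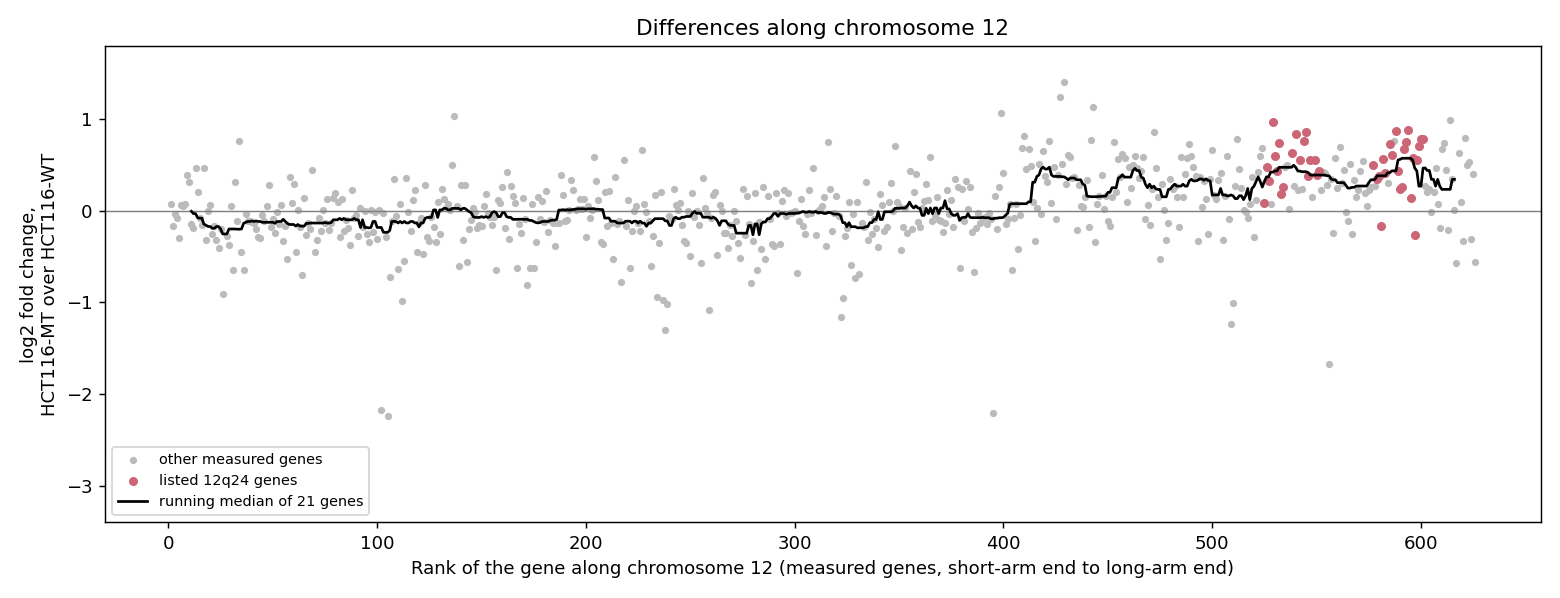
Log2 fold change of HCT116-MT over HCT116-WT (vertical axis) for the 626 measured genes of chromosome 12, by rank from the short-arm to the long-arm end (horizontal axis); red points are the 41 measured 12q24 genes, grey points the others, and the line is the running median of 21 genes. The line lies near or below 0 along most of the chromosome (-0.25 at *TNFRSF1A*). It rises above 0 along the last 206 genes, where it peaks at 0.57 within the second stretch. It is not drawn at the ends, where genes lack a full window of 21.

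Of the 12q24 genes, 16 encode a subunit or family member whose partners lie on other chromosomes. These partners were not part of the list and could be tested, though they too were listed with earlier results of these data known. Of 110 listed partners 103 were measured. Their median log2 fold change was 0.06, with 57 of 103 higher. It turned to -0.027 under median scaling, but all genes then had a median of -0.052. Left unnormalized, all genes had a median of -0.12 and the partners one of -0.095. The partners' median therefore stayed slightly above that of all genes in each setting. At the study thresholds 5 were higher (4.85%, against 3.46% of all genes), which is near the background. In the lower direction 1 of the 103 passed, a smaller share than the 3.85% of all genes. With limma 0 had an adjusted p under 0.05 in either direction (smallest 0.386), where 0.0168% of all genes were called higher and 0.0505% lower, and 5 were higher and 3 lower at an unadjusted p under 0.05. Limma with a mean-variance trend also called 0 higher and 0 lower.

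In all 16 complexes and families the 12q24 gene had a higher difference than the median of its partners. Since the 12q24 genes were picked for being high, this side was to a large part fixed by the choice. In TFIIH *GTF2H3* stood at 0.89, and all 8 measured partners lay below it, with a median of 0.09. Of these *CCNH* and *CDK7*, of its kinase module, stood at 0.45 and 0.21, *ERCC2* and *ERCC3*, its helicases, at -0.22 and 0.06, and *GTF2H1*, *GTF2H4*, *GTF2H5* and *MNAT1* between 0.06 and 0.13. *EIF2B1* stood at 0.75 and its 7 partners had a median of 0.09, though *EIF2B3*, another eIF2B subunit, was 0.59 higher (433 and 394 against 638 and 603, adjusted p = 0.455 with limma). The other eIF2B subunits *EIF2B5*, *EIF2B2* and *EIF2B4* stood at 0.46, 0.09 and -0.12, and the eIF2 genes *EIF2S3*, *EIF2S2* and *EIF2S1* at 0.13, 0.04 and -0.15. *GATC* stood at 0.86, against 0.16 for *GATB* and -0.09 for *QRSL1*, the other subunits of its enzyme. *TRIAP1* stood at 0.76, against 0.31 for *PRELID1* and -0.12 for *PRELID3B*, the lipid carriers it joins.

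The clamp loader was the one complex in which every partner was also higher. *RFC3* had 698 and 465 in HCT116-WT against 912 and 947 in HCT116-MT, with both mutant arrays above the others (0.71, SE 0.25, adjusted p = 0.484 with limma), and was at 0.41 without replicate 2 of HCT116-WT. *PCNA*, the clamp itself, *RFC4*, *RFC1* and *RFC2* stood at 0.45, 0.43, 0.24 and 0.21, and *RFC5* at 0.97 above all 5. Partners of dynein, of the vacuolar pump, of the p24 receptors and of ESCRT-I lay on the other side, with medians of -0.25, -0.19, -0.14 and -0.10, while *DYNLL1*, *ATP6V0A2*, *TMED2* and *VPS37B* stood at 0.56, 0.57, 0.26 and 0.38. *ATP6AP2*, an accessory subunit of the pump, was the partner past the thresholds on the lower side, with 9812 and 8356 against 6770 and 4548 (-0.71, SE 0.26, adjusted p = 0.486 with limma, and -0.42 without replicate 2 of HCT116-MT).

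In the remaining groups the partners were spread on both sides of 0. *COQ2*, which attaches the side chain of coenzyme Q, had 1720 and 1246 against 2745 and 2800, both mutant arrays the highest (0.92, SE 0.23). *PDSS1*, which makes that side chain, stood at 0.78 (SE 0.32) without passing the thresholds, and these 2 lay above *COQ5* at 0.55, while the median of its 9 partners was 0.05. *MCTS1*, which acts together with *DENR* on ribosomes, had 306 and 294 against 515 and 517, well apart (0.78, SE 0.19), and *EIF2D*, a related factor, at -0.34. *SAP30* of the Sin3 complex had 603 and 707 against 1079 and 1102, also without overlap (0.74, SE 0.20), and 5 of 11 Sin3 partners were above *SUDS3*. The adjusted p of *COQ2*, *MCTS1* and *SAP30* with limma was 0.386, 0.386 and 0.392. Partners of *POP5*, *SNRNP35*, *SRSF9* and *TCTN2* had medians of 0.16, 0.17, 0.08 and -0.01. Over the 16 groups 91 partners lay below and 12 above their 12q24 gene.

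**Figure D4:**
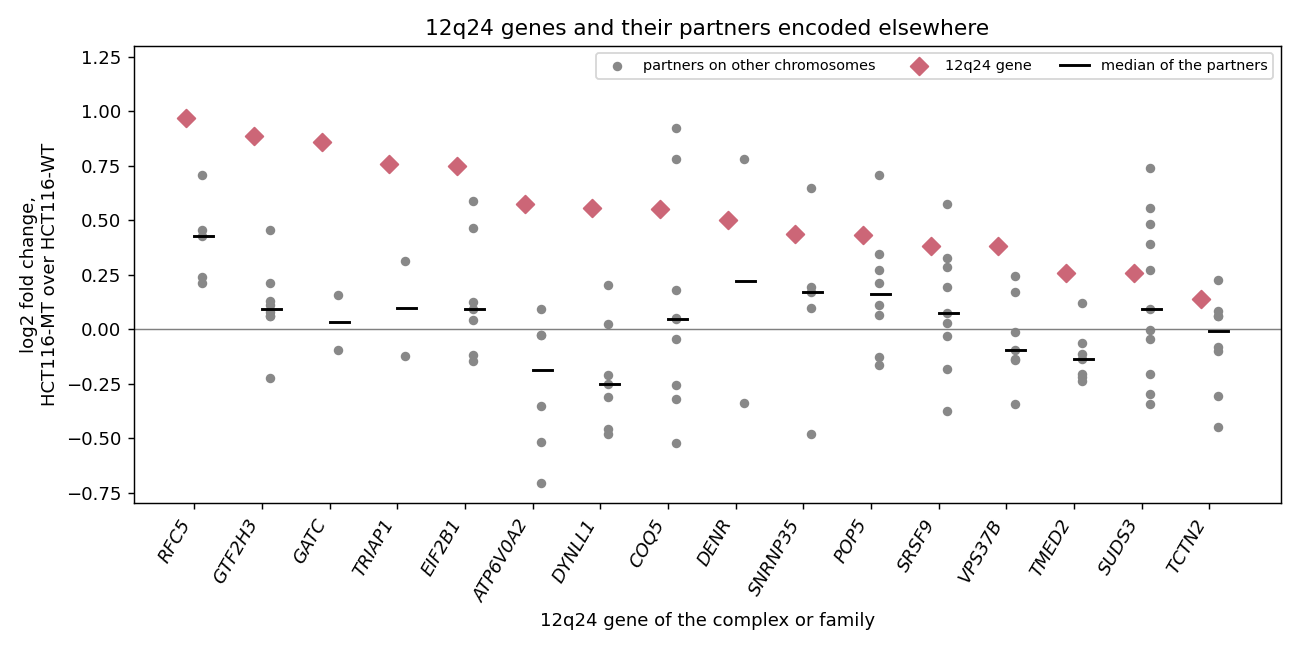
Log2 fold change of HCT116-MT over HCT116-WT (vertical axis) for 16 12q24 genes (red diamonds, ordered by their difference) and for 103 partners of the same complex or family encoded on other chromosomes (grey points), with the partners' median as a black bar. Every diamond lies above its black bar, and the partners as a whole have a median of 0.06.

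*CTNNB1* was expressed in both lines (2143 and 1949 against 2833 and 2196 in HCT116-MT, a log2 difference of 0.29, adjusted p = 0.757 with limma), and the array does not tell its alleles apart. Across detected probes the arrays of a line correlated at r = 0.965 (HCT116-WT) and 0.980 (HCT116-MT), and replicates 1 of the lines at 0.969. Of 10 colorectal epithelial markers 5 were detected on all 4 arrays, among them *EPCAM* and *CDX2*, and 4 on none (*KRT18*, *CDX1*, *VIL1* and *CEACAM5*). Their summed intensity was lower in HCT116-MT (17937 and 21276) than in HCT116-WT (35568 and 30428). Most of each sum came from *EPCAM* (7883 and 11200 against 22117 and 14375) and *KRT8* (5342 and 5264 against 6912 and 6575). *CDH1* (641 and 472 against 2227 and 1910) and *KRT19* (2837 and 2965 against 2998 and 6449) were lower too. *CDX2* overlapped (718 and 810 against 771 and 580). Both groups are cultured sublines of 1 cancer line, so the sums are not read as shares of cell types. The leukocyte sum was lower too (1343 and 1615 against 2814 and 3971), carried by *CD68* alone (793 and 1093 against 2314 and 3479), with *PTPRC* and *CD3E* detected on no array, while fibroblast and endothelial sums ranged from 1003 to 1089 and from 444 to 498 over the arrays. The part of these markers in the 12q24 differences was not tested.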

How the data were processed

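Biotin-labelled cRNA made from total RNA of 4 samples, 2 a line, was hybridised to HumanHT-12 v4 arrays. With GenomeStudio v2011.1 the authors made an intensity per probe and array, without normalization between arrays, and deposited it with a detection p-value for 47321 probes. Their methods then name quantile normalization and an integrated test. The series table was set aside, since many probes in it hold values that the other table gives to a different probe. A probe table gave 1 gene symbol for 30112 probes, and 30073 matched a RefSeq gene, whose order along the chromosome was used.

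Intensities were put on the log2 scale, quantile-normalized and fitted with limma 3.58.1 in R 4.3.3 on the 20579 probes detected on at least 2 arrays, with the brightest kept probe for each of 11875 genes and Benjamini-Hochberg adjustment over all of them. Printed intensities are normalized values on the linear scale. Only 4 arrays limit the precision. Tables and figures were made with Python 3.11.15 and matplotlib 3.10.9. The fit was tested on simulated arrays.

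The listed genes, the partner and marker lists and the rule for naming genes were chosen with earlier results of these data known. Named were all listed genes, other measured genes inside a stretch, 5 genes at each outer end, called partners and partners of genes described in full, and *CTNNB1*, with values on each array for the listed genes past the study thresholds and the 3 lowest. Further genes (*KDM2B*, those beyond *BRI3BP*, block ends and partners of *COQ5* and *DENR*) were named, and further values on each array given, after the values were seen. Alternatives were neqc (offset 16), median scaling, cyclic loess, no normalization, no detection filter, detection p under 0.01, detection on the 2 arrays of either line, the mean of kept probes, each array left out, a replicate block, limma with a mean-variance trend and Student's t-test.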

Additional observations from a re-analysis of the deposited data

How the results depend on the processing

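Of the single-gene log2 fold changes under the alternatives, 2554 moved by less than the spread between arrays and 75 by more, and none of the values compared reversed a call. The median of the 12q24 genes (0.55) was 0.50 with cyclic loess, 0.47 with median scaling, 0.65 with neqc, 0.40 with no normalization and 0.46 to 0.51 with an array left out. The median of all genes (-0.00) was -0.036, -0.052 and -0.12 with cyclic loess, median scaling and no normalization, and -0.0030 to 0.015 with an array left out, so that relative to all genes the 12q24 median was 0.54, 0.52 and 0.52. The 14 genes past the study thresholds became 9 with median scaling, 5 with no normalization, 3 with Student's t-test and 5 to 15 with an array left out, where the lone array of a line is assumed to vary like the other line's. For this count the block, the trend and Student's t-test were chosen after seeing the data. Of the 39 genes with a higher mean, 35 kept their sign under all alternatives, and *ATP6V0A2*, *FBXW8*, *TCTN2* and *VSIG10* did not. Neither did *ABCB9* and *CCDC92*, the 2 with a lower mean.

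The replicate numbers are only shared numbers (correlation of same-numbered deviations 0.0537). With the replicate block 13 12q24 genes passed the study thresholds, and 0 genes were called higher and 0 lower at adjusted p under 0.05. At the study thresholds 411 genes stood higher and 457 lower, against 248 and 516 with median scaling, 322 and 537 with cyclic loess, 130 and 605 with no normalization, 152 and 175 with Student's t-test, and 208 to 765 and 224 to 837 with an array left out. At adjusted p under 0.05 the 2 higher genes became 0 with median scaling and with no detection filter, 1 with Student's t-test and with detection in both arrays of a line, 4 with neqc and with detection p under 0.01, 5 with no normalization, 6 with the mean-variance trend and 0 to 7 with an array left out. The 6 lower genes became 0 with Student's t-test and with no detection filter, 12 with the trend and 0 to 47 with an array left out. Student's t-test, which the methods list among general tests without tying it to the arrays, also called 0 partners in either direction at adjusted p under 0.05. The partners' median (0.06) was -0.027 under median scaling, against -0.052 for all genes. Left unnormalized, all genes had a median of -0.12 and the partners one of -0.095. Their 5 higher calls became 3 with Student's t-test and with median scaling, 1 with no normalization and 3 to 10 with an array left out, and their 1 lower call became 0 with Student's t-test and 0 to 4 with an array left out.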
